A study of Mus musculus with 9 samples.

Results

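The comparison described here is between 2 states of RAW264.7, a mouse cell line that resembles macrophages: HG-SIG, kept for 6 h in 35 mmol/l glucose with sitagliptin phosphate, and NC, the control. Each group had 3 libraries, 6 of the 9 in the series, and the members of the comparison were all Ensembl genes with enough counts to be tested, 12125 of the 18631 in the table. The remaining 3 libraries, HG, were kept for 6 h in 35 mmol/l glucose without the drug, and their levels are given beside the others. No glucose concentration or incubation time is given for NC, and no dose for sitagliptin, in the sources used here. HG-SIG and NC differ in both glucose and sitagliptin, so the part of each cannot be told apart in this comparison. The series has no group with sitagliptin alone and none with another osmolyte, and RAW264.7 is a single virus-transformed line, not primary macrophages. The labels do not say whether replicates came from separate cultures. The p-values therefore rest on the spread among these libraries alone, which may be technical.

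Sitagliptin inhibits dipeptidyl peptidase 4 (DPP4), a protease that cleaves incretin hormones and some chemokines, and is given to lower blood glucose in type 2 diabetes. Macrophages sense microbial and metabolic signals through surface and Toll-like receptors. NF-kB and interferon regulatory factors then switch on cytokines, chemokines and antiviral genes. Activated macrophages also draw more strongly on glycolysis, and classical (M1-type) and alternative (M2-type) markers are used to describe the direction of activation, the question that the series title raises.

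Library totals ran from 25527773 to 31571578 counts in NC and HG-SIG. All 14 macrophage markers set for this line, among them Csf1r, Spi1 and Lyz2, passed the count filter, and their group means ran from 9.02 to 6286 CPM (each library's counts scaled to a common total with edgeR's TMM factors). Markers of T and B lymphocytes, neutrophils and epithelium summed to at most 0.305 CPM in any library and none passed the filter. Of dendritic cell markers, Zbtb46 alone passed, and the summed list ran from 0.901 to 1.27 CPM in NC and from 2.11 to 2.67 in HG-SIG. Of fibroblast markers, Pdgfrb alone passed, and that list summed to at most 0.824 CPM in any library. Whether these scarce markers bear on the results was not tested. Dpp4 was not analysed here.

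Between HG-SIG and NC, edgeR's quasi-likelihood test called 7375 of the 12125 genes (60.8%) at an adjusted p under 0.05. Of these, 3803 (31.4%) were higher and 3572 (29.5%) lower in HG-SIG. Most of the called differences were small, the median absolute change being 0.36 on the log2 scale. With TMM scaling, the large ones lay mostly on the lower side. Here 670 genes (5.53%) fell by more than 1 on the log2 scale and 332 (2.74%) rose by more than 1, together 1002 (8.26%). Past 2 on the log2 scale the split was wider still, with 153 lower against 43 higher genes between 2 and 3, and 69 lower against 12 higher beyond 3. The genes that rose by more than 1 were also scarcer, with a median average log2 CPM of -0.0048, against 3.14 for those that fell by more than 1 and 4.92 for all genes tested. For 8292 genes (68.4%) every HG-SIG library lay on the same side of every NC library. In the same fit, HG against NC gave 3746 calls (30.9%; 14.9% higher and 16.0% lower) and HG-SIG against HG 6622 (54.6%); the 3 comparisons share libraries, so their counts are set side by side without a test between them.

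**Figure D1:**
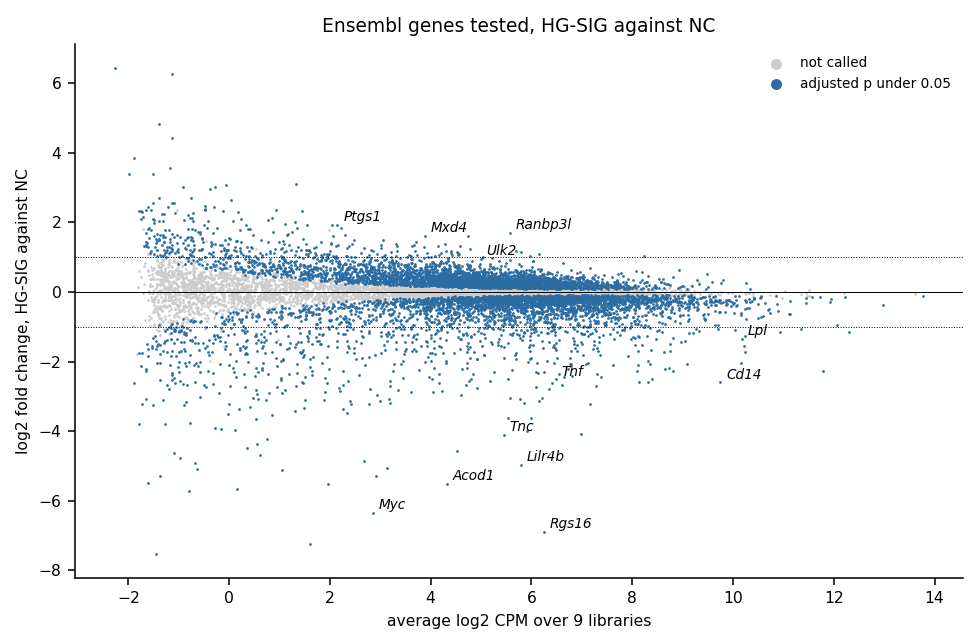
Each point is 1 of the 12125 Ensembl genes tested; the x axis gives the average log2 CPM over the 9 libraries and the y axis the log2 fold change of HG-SIG against NC, with dotted lines at 1 and -1. Blue points passed the test; the abundant genes beyond the dotted lines lie mostly below 0, with Rgs16 at -6.89, Myc at -6.35 and Acod1 at -5.51.

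The balance of higher and lower differences, small and large, depended on how the libraries were scaled. TMM factors were near 0.95 in NC and between 1.08 and 1.09 in HG-SIG. Without them, on library size alone, the median over all genes moved from 0.025 to 0.22 on the log2 scale, and the calls became 6481 higher and 1972 lower (76.7% higher, against 51.6% with TMM). With limma on log2(TPM + 1), the kind of analysis that the series' design text names, they became 7095 higher and 1757 lower (80.2% higher). Beyond 1 on the log2 scale library size alone gave 503 higher and 529 lower genes (48.7% higher, against 33.1% with TMM). Fold changes below are relative to the TMM scale, and a list whose direction changes between scales is given with both. Counts of list members are to be read beside the shares over all genes, 31.4% higher and 29.5% lower with TMM.

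Among genes averaging at least 2 on the log2 CPM scale, those that fell furthest were a regulator of G protein signalling, a growth transcription factor and an immune metabolic enzyme. Rgs16, at chr1:153740349-153745468 of GRCm38, speeds the shut-off of signals from G protein-coupled receptors. It stood at 186, 190.4 and 204 CPM in the NC libraries, 35.1, 32.4 and 31.01 in those of HG and 1.93, 1.38 and 1.58 in those of HG-SIG. No HG-SIG library came near the lowest NC library, and HG lay between them; the log2 fold change was -6.89 (SE 0.085, adjusted p = 3.2e-14). It overlaps another gene over 10.1% of its exonic length.

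Myc (chr15:61985391-61990374), a transcription factor that drives growth and division, was at 18.7, 17.4 and 20.7 CPM in the NC libraries, 2.82, 1.84 and 3.03 in those of HG and 0.221, 0.321 and 0.149 in those of HG-SIG, so that all 3 HG-SIG libraries were below 0.4 CPM. Its fold change was -6.35 (SE 0.2, adjusted p = 4.2e-11) on the log2 scale. Acod1 (chr14:103046977-103056573), which makes the antimicrobial metabolite itaconate, was at 54.1, 55.7 and 56.3 CPM in the NC libraries, 4.63, 3.18 and 3.25 in those of HG and 1.07, 1.06 and 1.49 in those of HG-SIG. Both groups with high glucose were far below NC here, and Acod1 changed by -5.51 (SE 0.12, adjusted p = 1.5e-12) in HG-SIG and by -3.89 in HG.

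Among the other genes that fell furthest were immunoglobulin-like myeloid receptors and secreted or matrix proteins. Lilr4b and Lilrb4a, a pair of closely similar myeloid receptors whose reads could be shared between them, changed by -4.96 (SE 0.076) and -4.07 (SE 0.1). Lilrb4a also overlaps another gene over 35.3% of its exonic length. Il13ra2, a decoy receptor for interleukin 13, stood at 16.7, 16.2 and 17.8 CPM in the NC libraries, 5.78, 5.49 and 5.41 in those of HG and 0.410, 0.385 and 0.477 in those of HG-SIG, a change of -5.298 (SE 0.11, adjusted p = 1e-12) with no overlap between NC and HG-SIG. Tnfsf8, the ligand of CD30, changed by -4.85 (SE 0.17). The matrix glycoprotein tenascin C, Tnc, changed by -4.12 (SE 0.086). Angptl2, a secreted angiopoietin-like protein, was at 108, 95.9 and 118 CPM in the NC libraries, 67.02, 61.9 and 72.5 in those of HG and 7.23, 6.26 and 6.77 in those of HG-SIG. For Angptl2 the HG libraries lay much closer to NC (-0.68) than the HG-SIG libraries did (-3.99). Xirp1, an actin-binding protein, showed the same order of levels, with 16.3, 13.7 and 17.7 CPM in the NC libraries, 10.03, 10.9 and 10.6 in those of HG and 0.631, 0.353 and 0.447 in those of HG-SIG.

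**Figure D2:**
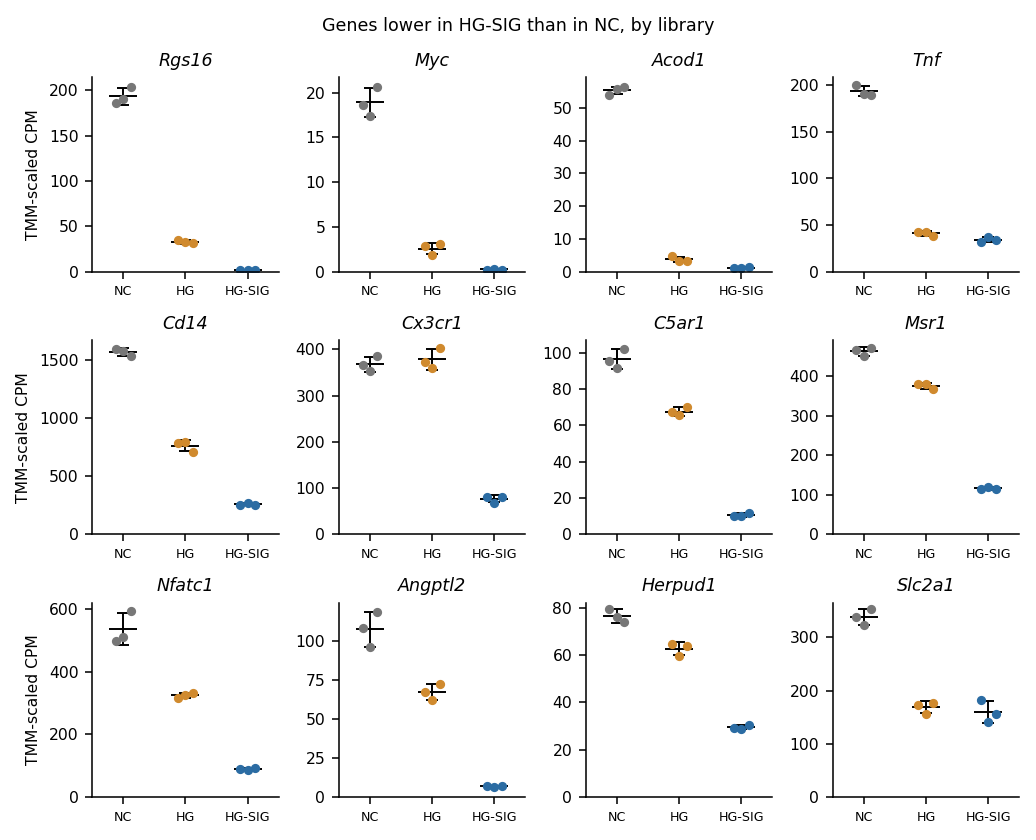
TMM-scaled CPM (y axes, from 0) of 12 genes in each library of NC, HG and HG-SIG; points are libraries, and the horizontal mark and bar give the mean ± SD of 3 libraries. In each panel all 3 HG-SIG libraries lie below all 3 NC libraries; the HG libraries lie near HG-SIG for Tnf and Slc2a1 and near NC for Cx3cr1.

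Inflammatory mediators were lower in HG-SIG in nearly every case that passed the test. Of 22 tested targets and feedback regulators of NF-kB, a transcription factor of inflammation, 1 rose and 21 fell, with a median of -1.06 against 0.025 over all genes. Of 10 tested chemokine ligands, all 10 fell, each by more than 1, with a median of -2.44. Among 13 cytokine ligands, 0 rose and 9 fell, while 4 did not pass the test. In HG against NC, which shares the NC libraries, the medians of the same lists were -0.97, -1.31 and -0.92.

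Tnf, the central inflammatory cytokine, was at 199.8, 191 and 189.8 CPM in the NC libraries, 42.5, 42.2 and 38.1 in those of HG and 31.4, 36.7 and 33.6 in those of HG-SIG. The 3 HG-SIG libraries were below the 3 HG libraries by a small margin, and both groups were far below NC, so that Tnf changed by -2.51 (SE 0.057, adjusted p = 1.7e-12) in HG-SIG against NC, -2.24 in HG against NC and -0.27 in HG-SIG against HG. Tnip3, an inhibitor of NF-kB signalling, was at 269.5, 266 and 254 CPM in the NC libraries, 165, 154 and 167 in those of HG and 52.3, 52.1 and 49.7 in those of HG-SIG, with HG between the other groups. It changed by -2.36 (SE 0.044, adjusted p = 4.3e-13). The adaptor Traf1 changed by -2.84 (SE 0.086), and Tnip1 by -1.14 (SE 0.038), with HG-SIG near HG (means of 137 CPM for NC, 66.5 for HG and 61.99 for HG-SIG). Cyld, a deubiquitinase that dampens NF-kB, was the member that rose, by 0.42. Il1rn, the natural antagonist of interleukin 1, fell by a like amount to Tnf: 49.5, 51.97 and 46.8 CPM in the NC libraries, 26.2, 28.96 and 23.2 in those of HG and 8.24, 9.06 and 8.59 in those of HG-SIG, a change of -2.52 (SE 0.079, adjusted p = 3.2e-11). Ltb, lymphotoxin beta, changed by -3.49 (SE 0.13), and Tgfb1, an anti-inflammatory cytokine, by -0.83 (SE 0.034).

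Chemokines recruit leukocytes by their receptors. Ccl9 was at 537, 518 and 531 CPM in the NC libraries, 236, 221 and 211 in those of HG and 87.7, 93.01 and 83.8 in those of HG-SIG, 3 separate bands of values. It changed by -2.58 (SE 0.05, adjusted p = 4.9e-13), Cxcl10, a ligand of CXCR3, by -2.98 (SE 0.086), and Ccl2, which draws monocytes, by -1.54 (SE 0.16). Cxcl16, another chemokine, was at 142, 147 and 147 CPM in the NC libraries, 151, 149 and 139 in those of HG and 51.2, 51.7 and 52.9 in those of HG-SIG. Its HG libraries overlapped NC while every HG-SIG library was lower; the changes were -1.49 (SE 0.04, adjusted p = 7e-12) in HG-SIG and 0.0095 (adjusted p = 0.88) in HG. Cxcl16 overlaps another gene over 18.3% of its exonic length. The remaining members ran from -4.498 for Cxcl11 to -1.12 for Ccl6.

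Some classical mediators were close to the limit of detection in every group. Ratios of their counts use library totals without TMM factors. Nos2, inducible nitric oxide synthase, had 67 counts over the 3 NC libraries, 9 over HG and 0 over HG-SIG, at least 22.4-fold lower with a floor of 3 counts over the group. Il1b had 6 counts in HG-SIG against 52 in NC and 2 in HG, 8.69-fold lower in HG-SIG than in NC (exact 95% counting interval 3.73 to 24.8). The anti-inflammatory cytokine Il10, which did not pass the count filter, had 37, 15 and 3 counts, a ratio of HG-SIG to NC of 0.0809 (0.0160 to 0.255). Il6 had 1 count in NC and 1 in HG-SIG and was not detectable beyond that.

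Markers of both polarization states were lower. Of 12 tested M1-type markers, 1 rose and 10 fell, while 1 did not pass the test (median -2.44, the same with Nos2 taken at its bound). Of 12 M2-type markers, 2 rose and 10 fell (median -1.02). The M1-type members besides those above included Ptgs2, inducible cyclooxygenase (-3.08), and Cd40, a costimulatory receptor (-2.36); Irf1, a transcription factor, was the member that rose (0.18). With DESeq2, and without NC replicate 2, NC replicate 3 or HG-SIG replicate 1, 0 M1-type members rose, and 2 did without NC replicate 1. On the M2-type side, Egr2, an early transcription factor, was at 16.9, 15.8 and 18.5 CPM in the NC libraries, 8.36, 7.61 and 8.53 in those of HG and 4.64, 3.31 and 2.77 in those of HG-SIG, a change of -2.26 (SE 0.13, adjusted p = 1.8e-08). Stab1, a scavenger receptor, changed by -1.68, and Pparg, a lipid-sensing nuclear receptor, by -1.13. Il4ra, the interleukin 4 receptor (1.04), and Irf4 (0.88), a transcription factor of alternative activation, were the M2-type members that rose, and 1 did without NC replicate 3 or HG-SIG replicate 3. Arg1 had 0 counts in HG-SIG against 6 in NC and 4 in HG, so no fold is given. Mrc1 had 6 against 10 and 2, a ratio of HG-SIG to NC of 0.598 (exact 95% counting interval 0.179 to 1.82). The M1-type marker Cd86 had 28 against 16 and 8, a ratio of 1.75 (0.912 to 3.45). Both intervals include no change. HG against NC gave medians of -1.75 for the M1-type and -0.52 for the M2-type list.

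Interferon-stimulated genes, the antiviral program, were lower as a group. Among 36 tested, 1 rose and 34 fell, while 1 did not pass the test, and 28 fell by more than 1, with a median of -1.38. Irf7, the transcription factor that amplifies interferon, was at 66.6, 68.6 and 66.7 CPM in the NC libraries, 30.6, 28.4 and 32.3 in those of HG and 22.8, 23.3 and 23.7 in those of HG-SIG. Its HG libraries lay much nearer to HG-SIG than to NC, with changes of -1.53 (SE 0.048, adjusted p = 3.1e-11) in HG-SIG and -1.15 in HG. Rtp4, an interferon-induced chaperone of receptors, was at 46.3, 49.9 and 48.6 CPM in the NC libraries, 31.6, 29.5 and 29.6 in those of HG and 13.3, 12.3 and 12.7 in those of HG-SIG, with HG midway; it changed by -1.92 (SE 0.053, adjusted p = 9.4e-12). Oasl1, a 2'-5'-oligoadenylate synthetase-like protein, changed by -1.74 (SE 0.05). Isg15, a ubiquitin-like modifier, changed by -2.77 and Ifit3, which binds viral RNA complexes, by -2.93. Ifit2 was the member that rose, by 0.23; with DESeq2, and without NC replicate 2, HG-SIG replicate 1 or HG-SIG replicate 2, 0 members rose. The list median in HG against NC was -0.93.

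To show what these genes carry before their starts, promoters were searched on both strands for the core of the interferon-stimulated response element, GAAA and GAAA with 2 bases of any kind between them. It was found in the 250 bases before the start of 14 of the 26 tested members with a promoter in RefSeq (53.8%), against 936 of 27025 genes (3.46%). Members were listed as known interferon targets, so this is a description of the list. Both strands and overlapping matches count. The promoters of Isg15 and Ifit3, the list's members with the lowest fold changes, are shown 5′ to 3′ from RefSeq (GRCm38.p6), the matches in capitals. Isg15 lies on the minus strand at chr4:156200819-156201068 with 3 overlapping matches, and Ifit3 on the plus strand at chr19:34583279-34583528 with 2.
Isg15: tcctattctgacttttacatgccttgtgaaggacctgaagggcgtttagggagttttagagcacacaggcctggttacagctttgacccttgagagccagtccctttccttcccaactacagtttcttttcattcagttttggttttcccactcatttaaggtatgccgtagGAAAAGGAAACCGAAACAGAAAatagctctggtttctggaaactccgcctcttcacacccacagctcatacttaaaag
Ifit3: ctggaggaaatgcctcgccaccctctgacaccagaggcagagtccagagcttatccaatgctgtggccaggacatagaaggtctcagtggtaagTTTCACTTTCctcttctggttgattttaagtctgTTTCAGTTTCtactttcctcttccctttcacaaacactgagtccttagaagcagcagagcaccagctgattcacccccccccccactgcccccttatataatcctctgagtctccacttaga

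Surface receptors by which macrophages sense chemoattractants and take up particles were mostly lower. Of 10 tested chemoattractant receptors, 0 rose and 7 fell, while 3 did not pass the test (median -1.62). Of 15 scavenger and phagocytic receptors, 2 rose and 12 fell, while 1 did not pass the test (median -1.68). In HG against NC 0 rose and 6 fell of the first list (median -0.47), and 5 rose and 9 fell of the second (median -0.19).

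C5ar1, the receptor of complement C5a, was at 95.4, 91.5 and 102 CPM in the NC libraries, 67.02, 65.4 and 69.98 in those of HG and 10.004, 9.99 and 11.8 in those of HG-SIG. Every HG-SIG library was far below both other groups, and C5ar1 changed by -3.18 (SE 0.066, adjusted p = 8.3e-13) against -0.52 in HG. Cx3cr1, the fractalkine receptor and a marker of resident macrophages, was at 365, 353 and 386 CPM in the NC libraries, 372, 359.96 and 403 in those of HG and 80.9, 68.3 and 81.4 in those of HG-SIG. NC and HG overlapped (0.039, adjusted p = 0.69) and HG-SIG lay below both (-2.26, SE 0.067, adjusted p = 1.9e-11). C3ar1, the receptor of complement C3a, changed by -2.61 (SE 0.13), and Ccr1 by -3.01. Ccr2, S1pr1 and Cxcr4 did not pass the test, at -0.20, -0.17 and -0.015.

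Msr1, scavenger receptor A, which takes up modified lipoproteins, was at 467, 451 and 471 CPM in the NC libraries, 380.4, 381 and 367 in those of HG and 114, 121 and 115 in those of HG-SIG. The step from HG to HG-SIG (-1.69) was larger than that from NC to HG (-0.30), and HG-SIG against NC gave -1.99 (SE 0.038, adjusted p = 4.7e-13). Cd36, which takes up oxidized lipoproteins and fatty acids, was at 725, 619 and 708 CPM in the NC libraries, 446, 413 and 438 in those of HG and 144, 148 and 158 in those of HG-SIG, a change of -2.19 (SE 0.06, adjusted p = 8.8e-12). Clec4e, the receptor Mincle for mycobacterial glycolipids, changed by -3.23 (SE 0.043, adjusted p = 3.8e-14) from 294, 304 and 299.7 CPM in NC to 32.1, 32.6 and 30.9 in HG-SIG. All 3 receptors were lower in every HG-SIG library than in any library of NC or HG. Axl, a receptor for apoptotic cells, changed by -3.43, and Scarb1 and Scarb2 were the members that rose, by 0.20 and 0.28.

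Markers of macrophage identity were lower but remained abundant. Among 23 tested, 2 rose and 18 fell, while 3 did not pass the test, with a median of -0.86 in HG-SIG and -0.14 in HG. Cd14, the coreceptor for lipopolysaccharide, was at 1594, 1577 and 1531 CPM in the NC libraries, 782, 789.9 and 706 in those of HG and 255, 269 and 252 in those of HG-SIG, in 3 separate ranges. Its change of -2.601 (SE 0.049, adjusted p = 4.3e-13) was the largest of the list. Cybb, the catalytic subunit of the phagocyte NADPH oxidase, was at 797, 753 and 773 CPM in the NC libraries, 519, 525 and 552 in those of HG and 287, 295 and 292 in those of HG-SIG, a change of -1.41 (SE 0.038, adjusted p = 7.2e-12). The lineage transcription factor Spi1 changed by -0.94 and the colony-stimulating factor receptor Csf1r by -0.53. Cebpa and Fcgr3 were the members that rose, by 0.23 and 0.24; 1 rose with DESeq2, with no count filter, and without NC replicate 3 or HG-SIG replicate 1. Of 7 tested genes of the NADPH oxidase, which makes the oxidative burst, 0 rose and 6 fell, while 1 did not pass the test (median -0.55), and 1 rose without NC replicate 1 or HG-SIG replicate 3; Ncf1 was at 420.2, 416 and 428 CPM in the NC libraries, 466, 462 and 436 in those of HG and 289, 288 and 287 in those of HG-SIG, and only HG-SIG was lower than NC. Ncf1 overlaps another gene over 11.1% of its exonic length. In bulk RNA, fewer cells that express a gene and less of its RNA in each cell cannot be told apart.

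Adhesion molecules followed. Of 16 tested integrins and adhesion genes, 1 rose and 15 fell (median -0.65). Itga5, the fibronectin receptor subunit, was at 339, 328 and 393 CPM in the NC libraries, 146, 138 and 171 in those of HG and 82.1, 77.2 and 90.3 in those of HG-SIG, a change of -2.09 (SE 0.087, adjusted p = 5e-10). Cd44, the hyaluronan receptor, changed by -1.66 (SE 0.06) and the tetraspanin Cd9, which overlaps another gene over 10.7% of its exonic length, by -1.19 (SE 0.042). For each of these 3 genes all HG-SIG libraries were below all HG libraries, which were below all NC libraries. Itgb5 was the member that rose, by 0.47.

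RAW264.7 cells can form osteoclasts, and genes of that differentiation fell without exception: of 12 tested, all 12 fell (median -1.84, against -0.37 in HG); on library size alone 11 fell and 0 rose. Nfatc1, the master transcription factor of osteoclasts, was at 499, 512 and 594 CPM in the NC libraries, 316, 326 and 331 in those of HG and 90.7, 85.8 and 92.9 in those of HG-SIG, a change of -2.58 (SE 0.062, adjusted p = 2.7e-12). Tnfrsf11a, which encodes the receptor RANK, was at 202, 199 and 214 CPM in the NC libraries, 201, 200.2 and 208 in those of HG and 65.2, 65.9 and 68.8 in those of HG-SIG. HG and NC overlapped (-0.016, adjusted p = 0.8), and HG-SIG was lower at -1.62 (SE 0.041, adjusted p = 3.7e-12). Dcstamp, needed for cell fusion, changed by -2.35 (SE 0.073), and the protease gene Mmp9, with 178 counts in NC and 13 in HG-SIG, by -3.93.

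Toll-like receptors and their adaptors split. Of 25 tested, 10 rose and 10 fell, while 5 did not pass the test, and the median of -0.029 became 0.16 on library size alone. The members that fell were Cd14, the kinase Irak2 (-2.24, SE 0.046, adjusted p = 8.1e-13), Cd180 (-0.79, SE 0.038), Tlr2, Tlr7, Tlr8, Tlr9, Tlr13, Ly86 and Unc93b1. Tlr1 and Tlr3 rose by 0.42 and 0.43, and the lipopolysaccharide receptor Tlr4 did not pass the test (-0.13). Cd180 was at 50.97, 50.7 and 50.5 CPM in HG-SIG against 88.4, 88.1 and 86.3 in NC and 96.6, 104 and 103 in HG, higher in HG than in NC and lower in HG-SIG. Among 13 inflammasome genes, 4 rose and 5 fell, while 4 did not pass the test, and the median of -0.095 became 0.095 on library size alone. Shares over all genes were 31.4% higher and 29.5% lower. Nlrp3, the sensor, was at 139.99, 143 and 144 CPM in the NC libraries, 71.3, 65.6 and 76.2 in those of HG and 52.1, 47.1 and 50.2 in those of HG-SIG, a change of -1.51 (SE 0.053, adjusted p = 8.2e-11), and Gsdmd, the pore-forming effector, changed by -1.096 (SE 0.047). Nek7, a kinase that binds NLRP3, rose by 0.43 (SE 0.035).

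Genes that respond early to growth factor and ERK signals fell with Myc. Of 31 tested, 1 rose and 21 fell, while 9 did not pass the test (median -0.65, against -0.43 in HG). Dusp4, a phosphatase of ERK, was at 145, 148 and 153 CPM in the NC libraries, 75.6, 77.1 and 81.6 in those of HG and 37.9, 33.8 and 37.1 in those of HG-SIG, a change of -2.04 (SE 0.048, adjusted p = 2.5e-12). Junb, an AP-1 subunit, was at 241, 250.3 and 261 CPM in the NC libraries, 142, 139 and 139.9 in those of HG and 91.99, 92.2 and 93.9 in those of HG-SIG, a change of -1.44 (SE 0.037, adjusted p = 4.4e-12). Both genes stepped down from NC to HG to HG-SIG with no overlap. Egr1, Dusp1 and Dusp6 did not pass the test (-0.29, -0.16 and 0.01). Btg2, which restrains the cell cycle, was the tested member that rose, by 1.11 (SE 0.085). Nr4a3, an early nuclear receptor that did not pass the count filter, had 32 counts over HG-SIG against 9 over NC and 6 over HG, a ratio of HG-SIG to NC of 3.55 (exact 95% counting interval 1.65 to 8.45).

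Cell cycle lists differed in direction, and some changed it with the scale. Of 14 tested G1 cyclins, kinases and inhibitors, 5 rose and 6 fell, while 3 did not pass the test, and the median of -0.041 became 0.15 on library size alone. With TMM, 31.4% of all genes were higher and 29.5% lower. Cdk6 was at 241, 244 and 243 CPM in the NC libraries, 148, 138 and 138 in those of HG and 100.4, 101 and 98.1 in those of HG-SIG, a change of -1.28 (SE 0.037, adjusted p = 1.2e-11). Ccnd1, cyclin D1, was at 659, 614 and 648 CPM in the NC libraries, 424, 409 and 444 in those of HG and 233, 218 and 235 in those of HG-SIG, a change of -1.49 (SE 0.045, adjusted p = 2.5e-11), and overlaps another gene over 23.4% of its exonic length. Rbl2, a retinoblastoma-family repressor of division genes that overlaps another gene over 11.8% of its exonic length, went the other way, at 26.5, 26.8 and 27.03 CPM in the NC libraries, 33.8, 34.2 and 34.2 in those of HG and 44.8, 45.5 and 48.6 in those of HG-SIG (0.79, SE 0.044, adjusted p = 8.8e-09). The CDK inhibitor Cdkn1a changed by -0.94 (SE 0.053). Of 35 mitosis and spindle genes, 23 rose and 1 fell, while 11 did not pass the test (median 0.17, and 0.20 in HG), and on library size alone 33 rose and 1 fell, with a median of 0.36; the kinase Ttk and the phosphatase Cdc25c (overlapped over 12.7% of its exonic length) rose by 0.33 (SE 0.033) and 0.38 (SE 0.04), and Cdc25b changed by -0.30 (SE 0.034), a call not kept with limma on log2(TPM + 1). Of 35 DNA replication genes, 2 rose and 19 fell, while 14 did not pass the test with TMM, while on library size alone 15 rose and 5 fell, with a median of 0.08. The replication licensing factor Cdt1 was at 62.6, 60.1 and 62.3 CPM in HG-SIG against 88.3, 92.9 and 95.3 in NC and 104, 108 and 103 in HG, and the helicase subunit Gins1 at 18.97, 18.6 and 17.96 CPM in HG-SIG against 29.2, 29.8 and 29.4 in NC and 36.1, 35.5 and 32.5 in HG; both were highest in HG and lowest in HG-SIG.

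Genes of glucose use were lower, and less clearly so without TMM scaling. Of 24 tested genes of glycolysis and lactate export, 1 rose and 21 fell, while 2 did not pass the test (median -0.46), and on library size alone 2 rose and 15 fell, with a median of -0.27. Slc2a1, the glucose transporter GLUT1, was at 338, 323 and 354 CPM in the NC libraries, 174, 156 and 177 in those of HG and 183, 142 and 156 in those of HG-SIG. HG and HG-SIG overlapped and both were below NC, with changes of -1.08 (SE 0.078, adjusted p = 1.2e-07) in HG-SIG and -1.002 in HG. Pgk1, phosphoglycerate kinase, was at 1906, 1887 and 1888 CPM in the NC libraries, 1578, 1559.9 and 1531 in those of HG and 1262, 1144 and 1117 in those of HG-SIG, in 3 separate ranges, a change of -0.69 (SE 0.044, adjusted p = 3.5e-08). Pfkp, a phosphofructokinase, changed by -0.92 (SE 0.055), Ldha, lactate dehydrogenase, by -0.62, and the lactate exporter Slc16a3 by -1.04. Pfkm rose by 0.47, and Gapdh did not pass the test (-0.28).

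HIF-1 targets outside glycolysis fell too. Of 21 tested, 2 rose and 14 fell, while 5 did not pass the test (median -0.56, and -0.50 in HG); 1 rose without NC replicate 2 or HG-SIG replicate 1. Bhlhe40, a transcriptional repressor, was at 72.6, 63.99 and 72.2 CPM in the NC libraries, 41.3, 34.5 and 40.1 in those of HG and 26.9, 20.4 and 22.4 in those of HG-SIG, a change of -1.58 (SE 0.091, adjusted p = 1.3e-08). Anxa2, a membrane-binding annexin, changed by -1.19 (SE 0.046). Vegfa changed by -1.03 and Hif1a itself by -0.52.

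Of 15 tested genes of the pentose phosphate and polyol pathways and of glucose sensing, 4 rose and 6 fell with TMM. A further 5 did not pass the test. Shares over all genes were 31.4% higher and 29.5% lower. On library size alone 9 rose and 2 fell, with a median of 0.14. Txnip, a thioredoxin-binding arrestin induced by glucose, was at 243, 248 and 294 CPM in the NC libraries, 319, 321 and 378 in those of HG and 328, 345 and 397 in those of HG-SIG. HG and HG-SIG overlapped above NC, with changes of 0.45 (SE 0.088, adjusted p = 0.00078) in HG-SIG and 0.38 in HG, and Txnip overlaps another gene over 19.4% of its exonic length. Akr1b8, an aldo-keto reductase with close paralogs, was at 161, 162 and 161 CPM in the NC libraries, 119, 133 and 113 in those of HG and 48.4, 53.4 and 47.4 in those of HG-SIG, a change of -1.698 (SE 0.059, adjusted p = 8.8e-11).

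Osmotic response genes were examined because added glucose also raises osmolarity and the series has no osmotic control. Of 12 tested, 6 rose and 3 fell, while 3 did not pass the test (median 0.19). All 3 that fell did so by more than 1 on the log2 scale, down to -3.34, and none rose by more than 1. Gpr84, a receptor counted in this list and among those that fell, changed by -2.51 (SE 0.059). Whether Gpr84 responds to osmolarity was not tested. It overlaps another gene over 39.5% of its exonic length. Slc5a3, the myo-inositol transporter induced by hypertonicity, was at 142, 152 and 150.4 CPM in the NC libraries, 314, 417 and 389 in those of HG and 152, 192 and 197 in those of HG-SIG. HG was far above both other groups, and HG-SIG lay only just above NC, with 0.28 (SE 0.1, adjusted p = 0.031) against 1.33 (adjusted p = 8.6e-07) in HG. That call for HG-SIG was lost with DESeq2 (0.27, adjusted p = 0.078), and with edgeR when any 1 NC library, or HG-SIG replicate 2 or 3, was left out (0.22 to 0.30). Ranbp3l, which is not in this list, showed a like order. It was at 10.2, 17.96 and 13.1 CPM in the NC libraries, 74.7, 99.3 and 85.9 in those of HG and 39.9, 47.1 and 45.5 in those of HG-SIG. Unlike Slc5a3, Ranbp3l stayed well above NC in HG-SIG (1.702, SE 0.16, adjusted p = 1.1e-06).

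Stress genes of the endoplasmic reticulum fell in HG-SIG. Of 25 tested genes of the unfolded protein response, 1 rose and 23 fell, while 1 did not pass the test (median -0.50, against -0.016 in HG); on library size alone 2 rose and 19 fell, with a median of -0.31. Herpud1, of the degradation machinery of the endoplasmic reticulum, was at 79.5, 76.2 and 73.9 CPM in the NC libraries, 64.7, 59.8 and 63.8 in those of HG and 29.1, 28.7 and 30.4 in those of HG-SIG, a change of -1.38 (SE 0.046, adjusted p = 5.4e-11). Manf, a secreted stress-induced factor, was at 250.04, 267 and 255 CPM in the NC libraries, 273, 248 and 243 in those of HG and 133, 132 and 126 in those of HG-SIG. NC and HG overlapped (-0.016, adjusted p = 0.83) and HG-SIG was lower than both (-0.98, SE 0.048, adjusted p = 2.4e-09). Edem1, which directs misfolded glycoproteins to degradation, changed by -1.01 (SE 0.037). Hspa5, the chaperone BiP, changed by -0.72 and the transcription factor Xbp1 by -0.72; the stress sensor Ern1 was the member that rose (0.45).

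The promoters of these genes were searched for the endoplasmic reticulum stress element on both strands, which is CCAAT, 9 bases of any kind and then CCACG. It was found in the 250 bases before the start of 9 of the 21 tested members with a promoter in RefSeq (42.9%), against 35 of 27025 genes (0.130%). Members were partly listed as known targets of this element, so the share describes the list. Hspa5 and Creld2, a stress-induced secreted protein (log2 fold change -0.69), are shown as examples, each with 1 match. Of the members found, only Hsp90b1 had more, with 2. Sequences are from RefSeq (GRCm38.p6), 5′ to 3′, with the match in capitals. Hspa5 lies on the plus strand at chr2:34771840-34772089. Creld2 lies on the plus strand at chr15:88819396-88819645, with its match on the opposite strand.
Hspa5: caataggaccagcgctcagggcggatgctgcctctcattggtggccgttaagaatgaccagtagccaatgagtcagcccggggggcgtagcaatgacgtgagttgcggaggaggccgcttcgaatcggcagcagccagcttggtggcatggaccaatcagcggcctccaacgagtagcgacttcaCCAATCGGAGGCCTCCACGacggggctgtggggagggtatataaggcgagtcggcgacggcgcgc
Creld2: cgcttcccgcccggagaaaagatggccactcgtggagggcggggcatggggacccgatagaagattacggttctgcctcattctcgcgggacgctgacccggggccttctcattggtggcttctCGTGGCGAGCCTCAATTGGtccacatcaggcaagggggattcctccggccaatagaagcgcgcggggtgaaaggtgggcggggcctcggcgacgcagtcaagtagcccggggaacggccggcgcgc

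Amino acid stress genes fell in both groups with high glucose. ATF4 is the transcription factor that switches on amino acid synthesis and import when translation is restrained. Of 31 tested targets, 1 rose and 29 fell, while 1 did not pass the test (median -0.41, and -0.51 in HG); on library size alone 1 rose and 19 fell, with a median of -0.22. Chac1, which degrades glutathione, was at 11.3, 10.5 and 11.2 CPM in the NC libraries, 1.601, 1.45 and 1.41 in those of HG and 1.77, 1.73 and 1.64 in those of HG-SIG. HG was lowest, HG-SIG lay just above it, and both were far below NC, with changes of -2.68 (SE 0.096, adjusted p = 1.1e-10) in HG-SIG and -2.88 in HG. Slc7a11, the cystine importer, was at 43.9, 44.7 and 47.9 CPM in the NC libraries, 21.9, 26.995 and 24.5 in those of HG and 9.03, 9.89 and 11.2 in those of HG-SIG, stepping down to HG and again to HG-SIG (-2.18, SE 0.085, adjusted p = 2.5e-10). Atf4 itself changed by -0.93 (SE 0.039). Slc38a2, an amino acid transporter, was the member that rose (0.34).

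The element TGATGNAA, bound by ATF4 with C/EBP proteins, was found in the 250 bases before the start of 7 of 25 tested targets with a promoter (28.0%), against 1056 of 27025 genes (3.91%). These members were listed as known ATF4 targets, so the share describes the list. The promoter of Slc7a11, a target with 2 matches (capitals, 1 on each strand), is shown from RefSeq (GRCm38.p6, minus strand, chr3:50443614-50443863).
Slc7a11: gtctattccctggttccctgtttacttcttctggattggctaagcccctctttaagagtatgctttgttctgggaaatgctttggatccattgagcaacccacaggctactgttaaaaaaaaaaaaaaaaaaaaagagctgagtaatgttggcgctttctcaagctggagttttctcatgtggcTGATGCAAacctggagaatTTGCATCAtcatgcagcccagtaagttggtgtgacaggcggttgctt

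The higher genes described next are among the 12 largest increases of genes with an established symbol that averaged at least 2 on the log2 CPM scale and did not overlap NC. Ptgs1, the constitutive cyclooxygenase, was at 1.76, 1.94 and 2.31 CPM in the NC libraries, 3.34, 2.12 and 3.56 in those of HG and 8.33, 6.42 and 8.14 in those of HG-SIG, a change of 1.93 (SE 0.18, adjusted p = 1.2e-06). Mxd4, a partner of MAX that opposes MYC, was at 7.702, 8.09 and 7.79 CPM in the NC libraries, 11.002, 11.9 and 11.5 in those of HG and 24.7, 24.3 and 23.5 in those of HG-SIG, a change of 1.62 (SE 0.061, adjusted p = 1.6e-10). Tob1, an antiproliferative protein that recruits a deadenylase, was at 8.10001, 6.11 and 8.06 CPM in the NC libraries, 10.03, 11.8 and 10.8 in those of HG and 20.9, 20.3 and 19.2 in those of HG-SIG, a change of 1.43 (SE 0.097, adjusted p = 6.5e-08). In all 3 genes every HG-SIG library was above every HG library.

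Mob3b, a member of the MOB family of kinase adaptors, was at 2.22, 2.11 and 2.48 CPM in the NC libraries, 2.96, 2.16 and 3.12 in those of HG and 7.95, 8.19 and 8.35 in those of HG-SIG (1.84, SE 0.12, adjusted p = 6.1e-08). L3mbtl3, a reader of methylated lysine, was at 2.36, 2.44 and 2.44 CPM in the NC libraries, 2.51, 1.84 and 1.98 in those of HG and 7.29, 6.81 and 7.84 in those of HG-SIG (1.601, SE 0.12, adjusted p = 1.6e-07). For both, HG overlapped NC and HG-SIG stood above. Hist1h1c, a linker histone, changed by 1.62 (SE 0.13) and Suox, sulfite oxidase, by 1.505 (SE 0.071). Grtp1, a TBC-domain protein, was at 1.16, 1.69 and 1.61 CPM in the NC libraries, 4.53, 5.101 and 5.15 in those of HG and 5.46, 5.59 and 5.67 in those of HG-SIG, and Bmf, a BH3-only death protein, at 2.03, 2.56 and 3.04 CPM in the NC libraries, 6.13, 7.53 and 6.598 in those of HG and 7.57, 6.58 and 7.16 in those of HG-SIG. For Grtp1 and Bmf, HG was already close to HG-SIG, with changes of 1.91 and 1.48 in HG-SIG and 1.73 and 1.41 in HG. Zrsr1, a splicing-factor relative, went from 2.56, 2.97 and 3.21 CPM in NC to 9.15, 9.09 and 8.71 in HG-SIG and was lowest in HG (1.74, 2.28 and 1.89).

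**Figure D3:**
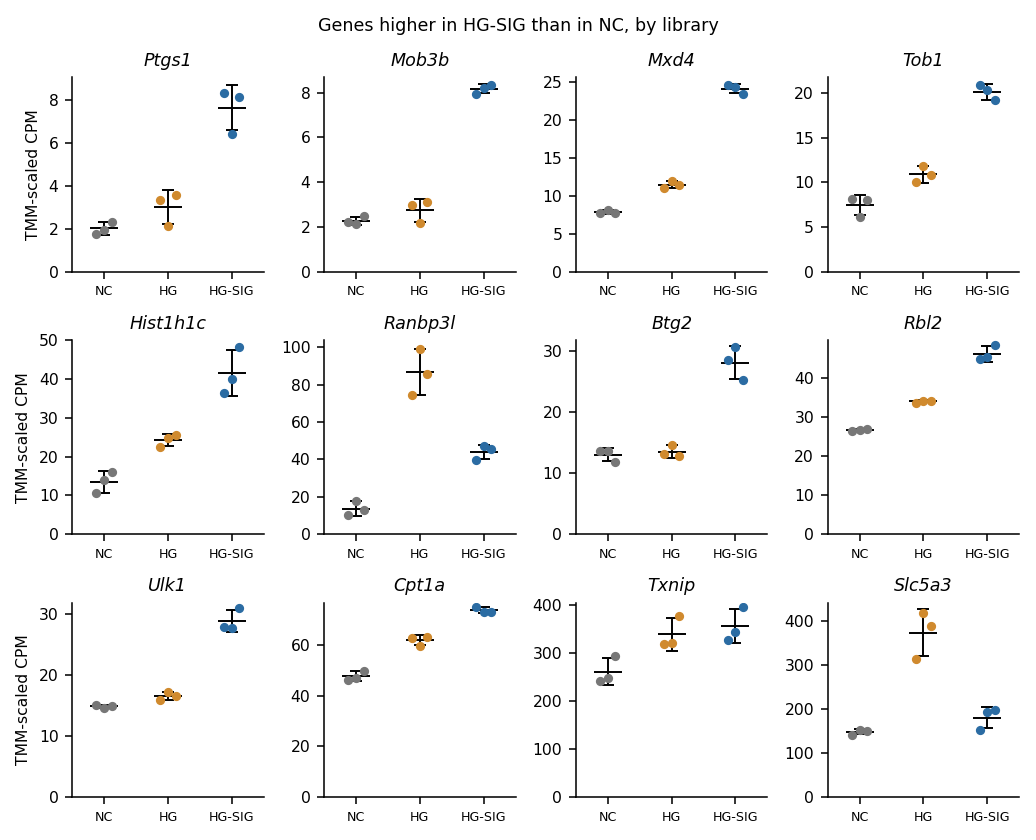
TMM-scaled CPM (y axes, from 0) of 12 genes in each library of NC, HG and HG-SIG; points are libraries, and the horizontal mark and bar give the mean ± SD of 3 libraries. All 3 HG-SIG libraries lie above all 3 NC libraries in each panel, by the narrowest margin for Slc5a3, whose highest values are in HG, as are those of Ranbp3l.

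Autophagy genes, which build the membranes that deliver cell contents to lysosomes, leaned upward. Of 24 tested, 12 rose and 6 fell, while 6 did not pass the test (median 0.15, and 0.042 in HG). Over all genes 31.4% were higher and 29.5% lower. On library size alone 18 rose and 2 fell, with a median of 0.34. On that scale 6481 of all 12125 genes were higher and 1972 lower, with a median of 0.22. Ulk1 and Ulk2 are kinases that start autophagy. Ulk1 was at 15.1, 14.5 and 14.95 CPM in the NC libraries, 15.9, 17.3 and 16.5 in those of HG and 27.9, 27.7 and 31.02 in those of HG-SIG, a change of 0.96 (SE 0.061, adjusted p = 3.5e-08). Ulk2 was at 23.04, 22.8 and 23.9 CPM in the NC libraries, 25.2, 26.3 and 26.6 in those of HG and 45.4, 45.2 and 45.2 in those of HG-SIG, a change of 0.96 (SE 0.043, adjusted p = 1e-09). Wipi1, a reader of membrane phosphoinositides, rose by 1.12, and the cargo receptor Sqstm1, which overlaps another gene over 17.3% of its exonic length, changed by -0.71 (SE 0.042), with HG-SIG near HG.

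Of 26 genes of the insulin, PI3K and FOXO pathway, 13 rose and 9 fell, while 4 did not pass the test (median 0.11). The shares over all genes were 31.4% higher and 29.5% lower. On library size alone 18 rose and 4 fell, with a median of 0.30 against 0.22 over all genes. FOXO transcription factors are held out of the nucleus by insulin signalling. Foxo4 was at 10.9, 12.3 and 11.4 CPM in the NC libraries, 13.8, 14.8 and 15.4 in those of HG and 17.4, 18.4 and 18.3 in those of HG-SIG, a change of 0.65 (SE 0.067, adjusted p = 3.5e-06), Foxo1 changed by 0.75 and the insulin receptor Insr by 0.36. Adaptors of PI3K that are typical of leukocytes fell: Pik3r5 was at 179, 188 and 189 CPM in the NC libraries, 130.3, 121 and 135 in those of HG and 69.2, 65.3 and 70.9 in those of HG-SIG (-1.44, SE 0.047, adjusted p = 4.7e-11) and Pik3ap1 changed by -1.26 (SE 0.047).

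Fatty acid oxidation genes also leaned upward: of 16 tested, 9 rose and 1 fell, while 6 did not pass the test (median 0.22, and 0.12 in HG). The shares over all genes were 31.4% higher and 29.5% lower. Cpt1a, which admits fatty acids to mitochondria, was at 46.3, 47.1 and 50.04 CPM in the NC libraries, 63.05, 59.95 and 63.3 in those of HG and 75.4, 73.1 and 73.4 in those of HG-SIG, in 3 separate ranges, a change of 0.63 (SE 0.041, adjusted p = 4.6e-08). Etfdh, which passes their electrons to the respiratory chain, changed by 0.66 (SE 0.041). Ppard, a nuclear receptor for fatty acids, was at 8.96, 8.46 and 7.63 CPM in the NC libraries, 5.29, 5.34 and 5.59 in those of HG and 15.4, 14.5 and 14.9 in those of HG-SIG; it was lowest in HG and highest in HG-SIG (0.84, SE 0.073, adjusted p = 6.7e-07).

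Lipid uptake and cholesterol genes were mixed. Of 22 tested targets of LXR, the nuclear receptor for oxysterols, and lipid handling genes, 5 rose and 12 fell, while 5 did not pass the test, and the median of -0.16 became 0.032 on library size alone. Lpl, lipoprotein lipase, was at 1531, 1402 and 1515 CPM in the NC libraries, 1419, 1342 and 1443 in those of HG and 581, 574 and 605 in those of HG-SIG. NC and HG overlapped, and HG-SIG was lower at -1.34 (SE 0.044, adjusted p = 5.4e-11). The cholesterol exporter Abca1 changed by -1.42. Of 25 cholesterol synthesis and uptake genes, 5 rose and 12 fell, while 8 did not pass the test with TMM, while on library size alone 10 rose and 5 fell, with a median of 0.087; in HG against NC 18 rose and 0 fell. The number that rose in HG-SIG was 3 with DESeq2, and 3 without NC replicate 1, NC replicate 3, HG-SIG replicate 1 or HG-SIG replicate 2. Insig1, a sterol-regulated brake on the pathway, was at 49.01, 51.9 and 50.9 CPM in HG-SIG against 67.1, 68.5 and 64.1 in NC and 89.6, 91.9 and 89.3 in HG, above NC in HG and below it in HG-SIG (-0.39, SE 0.04, adjusted p = 2.6e-06).

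Lysosomal genes fell in part: of 35 tested, 7 rose and 23 fell, while 5 did not pass the test (median -0.24, and -0.022 in HG), while with limma on log2(TPM + 1) 13 rose and 15 fell, with a median of -0.003. The cathepsins, lysosomal proteases, included the largest changes in both directions. Ctsl was at 839, 862 and 828 CPM in the NC libraries, 596, 614 and 573 in those of HG and 409, 410.1 and 386 in those of HG-SIG, a change of -1.07 (SE 0.04, adjusted p = 1.5e-10). Ctsb and Ctsd, which each overlap another gene over more than 10% of their exonic length, changed by -0.77 (SE 0.037) and -0.76 (SE 0.039). Ctsh rose by 0.94.

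The BCL2 family holds both survival and death genes. Of 15 tested, 3 rose and 9 fell, while 3 did not pass the test (median -0.33), while with limma on log2(TPM + 1) 5 rose and 5 fell, with a median of -0.092. Bcl2l1, which encodes the survival protein BCL-XL, was at 87.9, 85.99 and 79.9 CPM in the NC libraries, 49.9, 51.6 and 54.1 in those of HG and 37.1, 34.7 and 34.6 in those of HG-SIG, a change of -1.26 (SE 0.049, adjusted p = 2.7e-10). Bcl2a1b and Bcl2a1d, near-identical survival genes whose reads could be shared (Bcl2a1b also overlaps another gene over 49.1% of its exonic length), changed by -1.64 (SE 0.063) and -1.54 (SE 0.067), and Mcl1 by -0.82. The death genes Bmf and Pmaip1 rose, by 1.48 and 0.52, and the death genes Bax and Bbc3 fell, with log2 fold changes of -0.31 and -0.44.

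Several lists of housekeeping genes differed by small amounts that changed with the scale. Of 44 cytosolic ribosomal proteins, 0 rose and 40 fell, while 4 did not pass the test with TMM (median -0.28), while on library size alone 0 rose and 13 fell, with a median of -0.094. Of 38 nuclear-encoded respiratory chain genes, 0 rose and 20 fell, while 18 did not pass the test with TMM, while on library size alone 9 rose and 2 fell, with a median of 0.07. With TMM the number that fell was 13 without NC replicate 2 and 11 without HG-SIG replicate 3. Of 13 mitochondrially encoded genes, 0 rose and 7 fell, while 6 did not pass the test with TMM, and on library size alone 4 rose and 1 fell, with a median of 0.041. With TMM 4 of them fell without NC replicate 1, and 3 without NC replicate 3 or HG-SIG replicate 1, while 2 rose without NC replicate 3. Of 24 genes of the tricarboxylic acid cycle, 5 rose and 7 fell, while 12 did not pass the test with TMM, and on library size alone 16 rose and 0 fell, with a median of 0.16; with TMM 3 rose without NC replicate 2. Of 31 constitutive proteasome subunits, 0 rose and 24 fell, while 7 did not pass the test with TMM, and on library size alone 7 rose and 6 fell, with a median of -0.017. Of 29 nucleolar ribosome biogenesis genes, 2 rose and 19 fell, while 8 did not pass the test with TMM, and on library size alone 8 rose and 3 fell, with a median of 0.0031; with TMM 1 rose without NC replicate 1, HG-SIG replicate 2 or HG-SIG replicate 3. Some members passed the test on every scale tried: Rps6 was at 59.6, 54.8 and 66.7 CPM in the NC libraries, 59.7, 55.2 and 49.8 in those of HG and 34.02, 37.7 and 31.5 in those of HG-SIG (-0.81, SE 0.084, adjusted p = 3.4e-06), and Ndufs8, a complex I subunit, changed by -0.54 (SE 0.057).

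Gene length moved with the small differences. Among the 11246 protein-coding genes tested with an annotated length, the 2250 shortest (up to 2548 exonic bases) had a median log2 fold change of -0.092 and the 2249 longest (from 7597 bases) one of 0.091. Each HG-SIG library showed this order, from -0.11 to -0.070 in the shortest and from 0.081 to 0.10 in the longest, relative to the NC mean. Higher genes had a median exonic length of 5157 bases and lower genes one of 3909, against 4322 over all genes tested. Across genes, which are not independent replicates and share the same libraries, Spearman's rho between length and fold change was 0.14 and that between average log2 CPM and fold change was -0.24. The part of length in the results was not tested.

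Relatives of the drug's target were also measured. Of 6 tested genes of dipeptidyl peptidases and their relatives, 0 rose and 2 fell, while 4 did not pass the test with TMM. On library size alone 3 rose and 0 fell, with a median of 0.24. No incretin receptor was among the 6 tested. The incretin receptor gene Gipr, with 2 counts over NC, 2 over HG and 6 over HG-SIG, did not pass the count filter. Dpp7 was at 33.5, 33.6 and 32.9 CPM in the NC libraries, 30.4, 29.4 and 33.7 in those of HG and 24.5, 27.3 and 29.5 in those of HG-SIG (-0.30, SE 0.068, adjusted p = 0.0023), a difference that did not pass the test on library size alone (-0.11). Prep, prolyl endopeptidase, was at 227, 232 and 223 CPM in the NC libraries, 226, 233 and 231 in those of HG and 202, 196 and 188 in those of HG-SIG (-0.22, SE 0.037, adjusted p = 0.00021), a difference that did not pass the test on library size alone (-0.030) and reversed with limma on log2(TPM + 1) (0.016). Dpp3, Dpp8 and Dpp9 did not pass the test, at 0.052, 0.084 and 0.055, nor did Dpp10, which was scarce (means of 0.161 CPM for NC and 0.271 for HG-SIG) and had the largest difference of the list, 0.69.

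**Figure D4:**
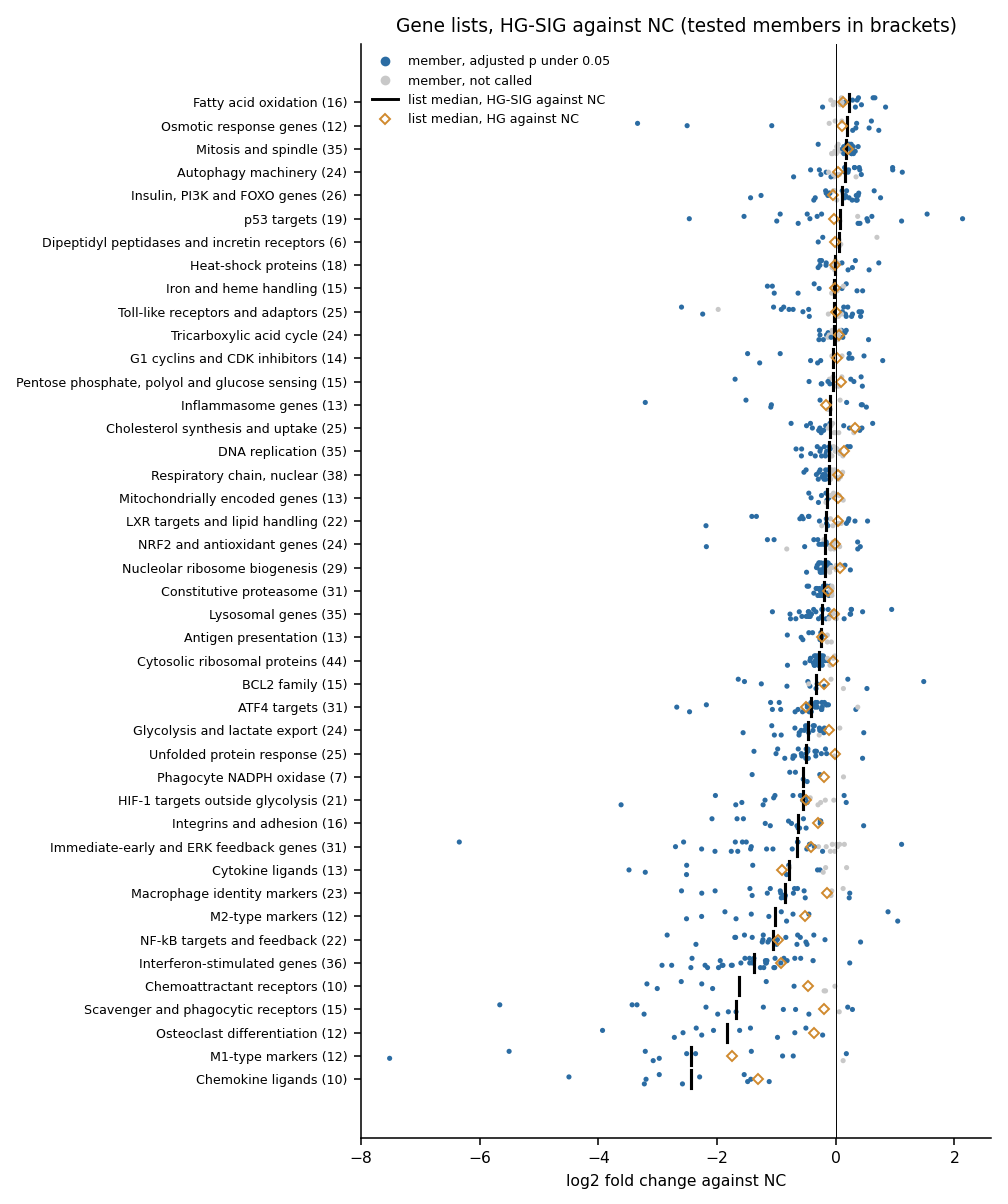
Log2 fold changes of HG-SIG against NC (x axis) for the tested members of 43 gene lists (y axis, number of tested members in brackets); filled points are genes, black bars the list medians, and open diamonds the medians of HG against NC. Chemokine ligands and M1-type markers have the lowest medians, both at -2.44; the medians of 14 lists, none further than 0.25 from 0 on the TMM scale, change sign on library size alone. Nos2, with 0 counts in HG-SIG, is drawn at its fitted value of -7.52, which depends on the prior count.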

How the data were processed

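RNA from RAW264.7 cells in 3 groups of 3 libraries (NC, HG and HG-SIG) was sequenced. The authors deposited whole-number read counts per gene, 100% whole in the file. Bowtie2 2.3.5, RSEM and mm10 are listed in the submitters' processing notes, without their roles. No source used here gives the annotation release, read length or strand. The table holds 20627 features, and edgeR's filterByExpr kept 13311, made up of 12125 Ensembl genes and 1186 unannotated loci. The deposited counts were scaled by TMM and all 9 libraries were fitted together with edgeR 4.0.16 (R 4.3.3, quasi-likelihood test). The p-values were adjusted by Benjamini-Hochberg over all features tested, and an adjusted p under 0.05 was called. Pooling the 3 groups gives 1 estimate of the spread. The fit was tried on simulated data with few changed genes, evenly higher and lower, where 5.39% of 204 calls were false. Far more genes differed in the real data, so the simulation cannot test the choice of scaling.

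Fold changes are log2 of HG-SIG over NC, and CPM are TMM-scaled except for the sums of markers of other cells. Those sums, and the ratios of counts of scarce genes, use library totals without TMM factors. Each library held 23285821 to 31571578 counts. The floor for a gene without counts was 3 counts, and intervals cover counting error only. Alternatives were DESeq2 1.42.0, limma 3.58.1 on log2(TPM + 1) and as limma-voom, and other scalings and filters. Each library of NC and HG-SIG, and of HG only replicate 3, was also left out in turn. TPM were computed from the counts and GENCODE M21 exon lengths, and 40 Ensembl identifiers were not found there. Promoter sequences are RefSeq's for GRCm38.p6. For 25 of 30 genes checked, bases just after the promoter's annotated start occurred in a GENCODE transcript of that gene. This checks the orientation and not the exact start.

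Genes were named by rule. The rule took the 12 highest and 12 lowest fold changes (average log2 CPM of 2 or more, groups not overlapping, established symbol), the 3 members of each list with the lowest p, and 20 fixed genes, of which 1 was not analysed here. That gave 143 genes. Members that went against their list, and others named with a fold change alone, were chosen after their values were seen. The comparison and its 48 lists were chosen with earlier results of these data known. Same-numbered NC and HG-SIG libraries deviated together weakly at most, and the numbers were not used as pairs in the main fit. Some genes that the rule names are not reported here.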

Additional observations from a re-analysis of the deposited data

How the results depend on the processing

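Of 2286 alternative values for the named genes, 2262 kept their direction and side of the threshold, 22 no longer passed it and 2 reversed. In all, 131 of the 143 genes held under all 16 alternatives in which they could be fitted. Of 688 list counts over 43 lists, 650 stayed within 1.5 times. Calls numbered 7331 with RLE size factors, 6782 with DESeq2 (3271 higher, 3511 lower), 7401 with limma-voom, 7384 without a count filter, 7137 with a filter at 1 CPM, and 7574 with the 6 libraries alone. Leaving out 1 library of NC or HG-SIG gave 6725 to 6793. Leaving out HG replicate 3, an alternative chosen after seeing the data, gave 7723. With the replicate number as a block there were 7820 calls. Deviations of same-numbered NC and HG-SIG libraries correlated at 0.057, -0.003 and 0.008, and those of HG and HG-SIG at 0.045, 0.031 and 0.099. Between NC and HG the same-numbered values were 0.048, 0.031 and 0.061. Values for differently numbered libraries ran from -0.077 to 0.041. Whether the numbers pair the samples was not tested.

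The balance of higher and lower calls moved with the scaling. On library size alone 6481 genes were higher and 1972 lower, and 503 rose by more than 1. With limma on log2(TPM + 1), 7095 were higher and 1757 lower. Of these, 476 passed 1 on the log2 scale, 150 higher and 326 lower; the added constant shrinks the folds of scarce genes. With the 1 CPM filter, 201 rose by more than 1, since fewer scarce genes were tested. The number of members that fell became, on library size alone and then with limma on log2(TPM + 1), 5 and 4 for antigen presentation, 5 and 4 for cholesterol synthesis, 2 and 2 for the pentose phosphate list, 0 and 0 for the tricarboxylic acid cycle, 2 and 2 for the respiratory chain, 1 and 0 for mitochondrially encoded genes, 19 and 16 for ATF4 targets, 1 and 0 for heat-shock proteins, 5 and 5 for NRF2 genes, 3 and 2 for nucleolar genes, 13 and 7 for ribosomal proteins, 5 and 4 for DNA replication, 0 and 0 for dipeptidyl peptidases, and 6 and 3 for the proteasome. With limma on log2(TPM + 1) alone, it became 15 for lysosomal genes, 5 for p53 targets and 5 for the BCL2 family. The fatty acid oxidation members that rose became 14 and 15. Prep and Ndufb3 reversed with limma on log2(TPM + 1), to 0.016 and 0.022, from -0.22 and -0.21. Leaving out 1 library gave 11 to 21 respiratory chain members and 3 to 9 mitochondrially encoded genes that fell. The cause was not tested.

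Depth limits the scarce genes: Il6 and Arg1 had at most 6 counts in any group, and no fold is given for them.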

Other observations

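Genes of antigen presentation on MHC class I were lower by small amounts. Of 13 tested, 0 rose and 10 fell, while 3 did not pass the test (median -0.25, and -0.23 in HG), but on library size alone 0 rose and 5 fell, with a median of -0.062. Nlrc5, the transactivator of MHC class I genes, changed by -0.82, the immunoproteasome subunit Psmb8 by -0.56 and B2m, the light chain, by -0.45. Psmb8 overlaps another gene over 14.7% of its exonic length.

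Iron and antioxidant genes did not move as blocks. Of 15 iron and heme genes, 4 rose and 6 fell, while 5 did not pass the test with TMM (median -0.024). Shares over all genes were 31.4% higher and 29.5% lower. On library size alone 7 rose and 5 fell, with a median of 0.17. Hmox1, which degrades heme, changed by -1.15 (SE 0.058), Fth1, the ferritin heavy chain, by -0.64, and the heme exporter Flvcr1 by 0.45. Of 24 genes of NRF2, the regulator of antioxidant defence, 3 rose and 12 fell, while 9 did not pass the test, and the median of -0.18 became 0.013 on library size alone. Nfe2l2, which encodes NRF2, changed by -0.52, while Gclm and Gss, of glutathione synthesis, rose by 0.37 and 0.41.

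Targets of the tumour suppressor p53 went in both directions: of 19 tested, 8 rose and 9 fell, while 2 did not pass the test. Trp53inp1, a stress protein, rose by 2.14 (SE 0.18) and Phlda3, an inhibitor of AKT, by 1.54 (SE 0.32), whereas the death receptor Fas changed by -2.47 (SE 0.19) and Mdm2, which degrades p53, by -0.63. Of 18 heat-shock proteins, 6 rose and 6 fell, while 6 did not pass the test, and on library size alone 12 rose and 1 fell, with a median of 0.18. With TMM, 31.4% of all genes were higher and 29.5% lower.

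The table also holds unannotated loci. Of 1186 tested, 426 (35.9%) passed the test, of which 175 had higher and 251 lower levels in HG-SIG; the median log2 fold change was -0.014.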
